A study of Homo sapiens with 6 samples.

Results

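Condensins are ring-shaped protein complexes that fold chromatin into rod-like chromosomes before cell division. The 8 genes described here encode their subunits and were taken by symbol as the known members of condensin I and II. They were not picked singly by value, but the set was chosen with earlier results of these data known. All 8 have a row among the 26255 gene symbols of each deposited table, and all 8 are among the 12213 genes tested. SMC2 and SMC4 are the paired ATPases shared by both complexes. NCAPD2, NCAPG and NCAPH complete condensin I, which is known to reach the chromosomes after the nuclear envelope breaks down. NCAPD3, NCAPG2 and NCAPH2 complete condensin II, which is nuclear through interphase and starts compaction in prophase. In each complex the kleisin (NCAPH or NCAPH2) bridges the ATPase heads, and the pair of HEAT-repeat subunits (NCAPD2 and NCAPG, or NCAPD3 and NCAPG2) sits on the kleisin and contacts DNA.

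RNA of HCT116, an established cell line from a human colorectal carcinoma, was sequenced with an mRNA library kit in 3 libraries of ZsGreen-positive cells and 3 of ZsGreen-negative cells. ZsGreen is a green fluorescent protein, and the series title names cells transduced with the degron of ornithine decarboxylase, a signal for proteasomal breakdown that needs no ubiquitin tag. The sample titles of the groups carry different prefixes that are not explained, and whether both groups were sorted from the same culture is not stated. No other treatment, genotype or time is given for either group, and neither the promoter of the reporter, nor the number of clones, nor whether ZsGreen-negative cells carry the reporter is stated. The labels do not say whether replicates are separate cultures, so a p-value here speaks of the scatter among libraries, possibly technical alone. In bulk RNA, more cells that express a gene and more RNA per cell cannot be told apart.

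Values are FPKM, read fragments scaled to transcript length and to a total for the library. Levels of different genes can thus be set side by side. How that total was set between libraries is not stated. Every log2 fold change is ZsGreen-positive minus ZsGreen-negative on the log2(FPKM + 1) scale, with its SE. Depth was estimated from the lowest FPKM values of long genes, taking FPKM as scaled to the mapped total of each library. It was near 12100000 fragments for ZsGreen-positive replicate 1, and lay between 9420000 and 9720000 for ZsGreen-negative cells. ZsGreen-positive replicates 2 and 3 stood apart. Among long single-transcript genes estimated at 1 to 8 fragments, the share with a single fragment was 8.18% and 10.1% there. It was 27.7% for ZsGreen-positive replicate 1, and 28.9% to 35.7% for ZsGreen-negative cells. Their step rests on 6 genes each, so their depth was not fixed. Epithelial markers (EPCAM, CDH1, KRT8, KRT18 and KRT19) were detected in every library. Their summed level was 3139 to 3572 FPKM in ZsGreen-positive and 4238 to 4305 FPKM in ZsGreen-negative libraries. The sum is mostly keratin and hides unlike members. CDH1 stood at 16.5 to 19.0 FPKM in ZsGreen-positive and 49.5 to 50.4 FPKM in ZsGreen-negative libraries. KRT8 and KRT18 were also lower in every ZsGreen-positive library, EPCAM was higher in each, and KRT19 overlapped. Summed leukocyte, stromal and endothelial markers stayed at or below 4.42, 1.19 and 0.31 FPKM in ZsGreen-positive libraries. In ZsGreen-negative libraries they stayed at or below 3.84, 2.5 and 0.142 FPKM. CD3E, COL1A2 and DCN were listed at 0 in every library.

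All 8 condensin subunit transcripts were higher in ZsGreen-positive than in ZsGreen-negative cells, by 2.07 to 11.7 times in mean FPKM. The HEAT-repeat subunits NCAPG, NCAPD3 and NCAPD2 and the kleisin NCAPH rose most, and the shared ATPase SMC4 least. Under limma with Benjamini-Hochberg adjustment over all genes tested and a threshold of 0.05, 8 of 8 rose, where 29.4% of all genes tested rose and 59.4% changed in either direction. Their groups did not overlap for 8 of 8, where 33.2% of all genes tested had every ZsGreen-positive library above every ZsGreen-negative one and 67.6% did not overlap in either direction. A rise past the threshold with a log2 fold change of at least 1 was reached by 7 of 8 (9.48% of all genes tested). One with at least 2 was reached by 4 of 8 (2.2%). The median log2 fold change was 2.04 over the 8 subunits and 0.0040 over all genes tested. Without ZsGreen-positive replicates 2 and 3 their median was 1.91 and every log2 fold change was above 0. The calls of that fit are not used, since its spread comes from the ZsGreen-negative libraries alone and it passes 8850 of 12171 genes.

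**Figure D1:**
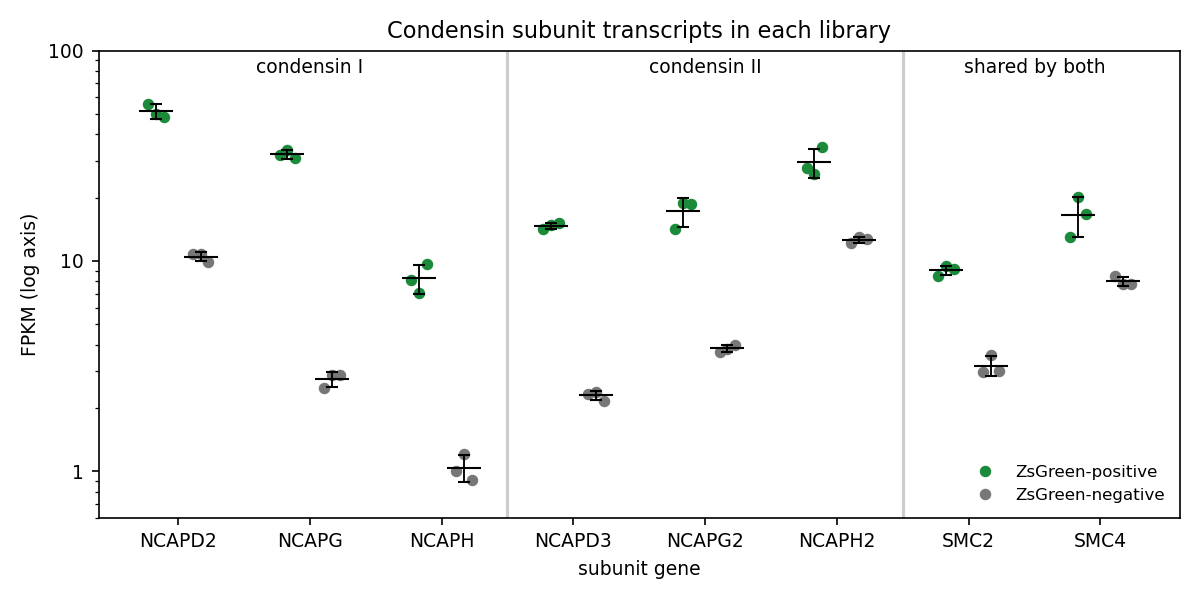
FPKM of the 8 condensin subunit genes in each library on a log axis, with ZsGreen-positive libraries in green and ZsGreen-negative libraries in grey. Points are single libraries, and the black marks are the mean and SD of 3 libraries. The ZsGreen-positive points of every gene lie above all of its ZsGreen-negative points, with the widest gap for NCAPG (32.2 against 2.75 FPKM) and the narrowest for SMC4 (16.6 against 8.0 FPKM).

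Promoter windows of 4 subunit genes are shown because their transcripts rose together and by unequal amounts. By log2 fold change NCAPG had the largest rise, NCAPD3 and NCAPD2 lay next to each other, and SMC4 had the smallest. RefSeq (GRCh38.p14) gave 10 start windows for 7 of the 8 genes, matched by symbol, each with 250 bases before and 50 after an annotated start. The lines run from 150 bases before the start to 10 after it, 5′ to 3′ on the strand of the gene. Capitals mark the searched letters CCAAT (the box bound by NF-Y), TTTGAA (the usual form of the cell cycle genes homology region) and TTCCCGC (an E2F-type site) on either strand, so a match on the other strand appears as its reverse complement. None of the marked matches overlap. NCAPD3, SMC4 and SMC2 each had another window without any match, and for NCAPD3 and SMC4 only the window with matches is printed. The window of NCAPH held no TTTGAA and is not printed. The log2 fold change of NCAPH (2.18) was close to that of NCAPD2 (2.19). In mean FPKM NCAPH rose more (7.94-fold against 4.91-fold), since the added 1 FPKM weighs on its low ZsGreen-negative level.
NCAPG, chr4:17810829-17810988, plus strand: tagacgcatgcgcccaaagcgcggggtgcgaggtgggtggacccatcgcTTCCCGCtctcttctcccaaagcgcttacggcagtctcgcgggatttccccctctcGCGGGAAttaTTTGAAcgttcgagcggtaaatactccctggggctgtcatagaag
NCAPD3, chr11:134223958-134224117, minus strand: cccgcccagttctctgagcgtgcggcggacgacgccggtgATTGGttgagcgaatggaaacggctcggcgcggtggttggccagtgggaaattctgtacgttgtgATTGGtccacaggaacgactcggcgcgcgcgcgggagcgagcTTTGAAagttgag
NCAPD2, chr12:6493952-6494111, plus strand: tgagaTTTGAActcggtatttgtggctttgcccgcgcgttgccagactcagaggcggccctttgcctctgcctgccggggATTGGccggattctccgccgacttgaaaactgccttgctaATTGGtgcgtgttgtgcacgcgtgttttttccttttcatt
SMC4, chr3:160399500-160399659, plus strand: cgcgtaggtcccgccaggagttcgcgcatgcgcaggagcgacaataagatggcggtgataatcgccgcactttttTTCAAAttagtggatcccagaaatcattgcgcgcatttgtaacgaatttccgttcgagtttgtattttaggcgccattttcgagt

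TTTGAA was found in windows of 6 of the 7 genes (6 of 10 windows), and in 15.2% of all 35116 RefSeq windows of the same length. Among windows of the genes tested here, 10.2% held it. Counted from the start, with 1 as its first base, TTTGAA began at -35 in NCAPG, at -3 in SMC2 and in the printed start of NCAPD3, at -75 in SMC4, at -145 in NCAPD2 and at 36 in NCAPG2. CCAAT was found for NCAPD2 (4 copies, all in reverse), NCAPD3 (2 copies, both in reverse) and NCAPH (1 copy), and in 34.6% of all windows. The NCAPD2 copies at -199 and -170 lie before the printed stretch. TTCCCGC was found in NCAPG (2 copies) and in NCAPD3 (1 copy, before the printed stretch), and in 6.55% of all windows. Among windows of the genes tested here, 34.8% held CCAAT and 9.88% held TTCCCGC. GC content of the 10 windows ran between 47.7% and 74.3%, beside a median of 58.7% over all windows. These are matches of letters in a window and say nothing of a factor bound there.

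Within condensin I, the HEAT-repeat subunit gene NCAPG stood at 31.8, 33.8 and 30.9 FPKM in ZsGreen-positive and at 2.49, 2.88 and 2.87 FPKM in ZsGreen-negative replicates 1 to 3. Its ZsGreen-positive values lay close together, and the lowest of them was far above the highest ZsGreen-negative value. NCAPG rose 11.7-fold in mean FPKM, with a log2 fold change of 3.15 ± 0.0888 (limma adjusted p = 5.7e-07), and ranked 94 of 12213 genes tested by log2 fold change.

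NCAPD2, the other HEAT-repeat subunit of condensin I, was the most abundant of the 8 transcripts in ZsGreen-positive cells. It stood at 56.1, 49.9 and 48.6 FPKM in ZsGreen-positive and at 10.8, 10.8 and 9.89 FPKM in ZsGreen-negative libraries. The groups were again wide apart, and the log2 fold change was 2.19 ± 0.0814 (4.91-fold in mean FPKM, limma adjusted p = 1.73e-06).

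NCAPH, the kleisin of condensin I, was the least abundant transcript in both groups. It had 8.14, 7.01 and 9.64 FPKM in ZsGreen-positive and 1.00, 1.20 and 0.912 FPKM in ZsGreen-negative libraries. The lowest ZsGreen-positive value was several times the highest ZsGreen-negative one. NCAPH rose with a log2 fold change of 2.18 ± 0.15 (limma adjusted p = 1.94e-05). Because of its low ZsGreen-negative level, this scale understates its change, which was 7.94-fold in mean FPKM. The ZsGreen-negative values rest on few reads, about 25.9 to 33.5 fragments per library if the longest coding transcript is taken as the length.

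Within condensin II, the HEAT-repeat subunit gene NCAPD3 had 14.2, 14.8 and 15.1 FPKM in ZsGreen-positive and 2.32, 2.39 and 2.17 FPKM in ZsGreen-negative libraries. Both groups were tight, and NCAPD3 rose 6.42-fold in mean FPKM, with a log2 fold change of 2.25 ± 0.0929 (limma adjusted p = 2.53e-06). NCAPG2, its HEAT-repeat partner, had 14.1, 18.9 and 18.7 FPKM in ZsGreen-positive and 3.70, 3.82 and 3.98 FPKM in ZsGreen-negative libraries. ZsGreen-positive replicate 1 was the lowest of its group and still well above every ZsGreen-negative library. The log2 fold change of NCAPG2 was 1.90 ± 0.13 (4.49-fold, limma adjusted p = 1.77e-05).

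The kleisin NCAPH2 moved less. It had 27.7, 25.8 and 34.7 FPKM in ZsGreen-positive and 12.2, 13.0 and 12.7 FPKM in ZsGreen-negative libraries, where it was the most abundant of the 8 transcripts. The groups did not overlap, and ZsGreen-positive replicate 3 was the highest. NCAPH2 rose 2.33-fold in mean FPKM, with a log2 fold change of 1.15 ± 0.11 (limma adjusted p = 0.00012).

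The ATPase genes shared by both complexes rose by less than most of the other subunits. SMC2 had 8.51, 9.41 and 9.18 FPKM in ZsGreen-positive and 2.96, 3.57 and 2.99 FPKM in ZsGreen-negative libraries. No library of one group reached the other, and the log2 fold change was 1.27 ± 0.11 (2.85-fold, limma adjusted p = 5.94e-05). SMC4 had 13.0, 20.1 and 16.7 FPKM in ZsGreen-positive and 8.47, 7.78 and 7.75 FPKM in ZsGreen-negative libraries. Its ZsGreen-positive values were the most scattered of the 8 genes relative to the gap between groups, with replicate 1 lowest and replicate 2 highest. SMC4 rose 2.07-fold, with a log2 fold change of 0.95 ± 0.15 (limma adjusted p = 0.00123). Against the ZsGreen-negative libraries, ZsGreen-positive replicate 1 alone gave SMC4 a log2 fold change of 0.64, a value with no spread of its own group.

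The order of levels also differed between the groups. In ZsGreen-positive cells NCAPD2 led (51.5 ± 4.02 FPKM, SD, n = 3), followed by NCAPG (32.2 ± 1.5), NCAPH2 (29.4 ± 4.67), NCAPG2 (17.2 ± 2.69), SMC4 (16.6 ± 3.57), NCAPD3 (14.7 ± 0.490), SMC2 (9.03 ± 0.472) and NCAPH (8.26 ± 1.32). Neighbours in this order overlapped in their libraries for NCAPG and NCAPH2, NCAPG2 and SMC4, SMC4 and NCAPD3, and SMC2 and NCAPH. In ZsGreen-negative cells NCAPH2 led (12.6 ± 0.421 FPKM, SD, n = 3), followed by NCAPD2 (10.5 ± 0.515), SMC4 (8.0 ± 0.406), NCAPG2 (3.84 ± 0.140), SMC2 (3.17 ± 0.343), NCAPG (2.75 ± 0.222), NCAPD3 (2.29 ± 0.114) and NCAPH (1.04 ± 0.149). There no neighbours overlapped. NCAPG thus stood second in ZsGreen-positive and sixth in ZsGreen-negative cells. The highest mean was 6.24 times the lowest in ZsGreen-positive cells and 12.1 times the lowest in ZsGreen-negative cells.

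Summed FPKM of the subunits specific to condensin I was 96.1, 90.7 and 89.1 in ZsGreen-positive and 14.3, 14.9 and 13.7 in ZsGreen-negative libraries. For the subunits specific to condensin II the sums were 56.0, 59.5 and 68.5 in ZsGreen-positive and 18.2, 19.2 and 18.8 in ZsGreen-negative libraries. The condensin I sum was therefore the larger one in every ZsGreen-positive library and the smaller one in every ZsGreen-negative library. Of the corresponding subunits, only NCAPG and NCAPG2 changed order in this way. NCAPD2 exceeded NCAPD3, and NCAPH lay below NCAPH2, in every library of both groups. SMC2 and SMC4 together gave 21.5, 29.5 and 25.9 FPKM in ZsGreen-positive and 11.4, 11.3 and 10.7 FPKM in ZsGreen-negative libraries.

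To ask whether corresponding subunits of the complexes rose by unequal factors, the ratio of their FPKM was taken within each library, where scaling between libraries cancels. The ratio of the kleisins, NCAPH over NCAPH2, was 0.294, 0.271 and 0.278 in ZsGreen-positive and 0.0825, 0.0926 and 0.0718 in ZsGreen-negative libraries. All ZsGreen-positive ratios were higher, and the log2 ratio differed by 1.78 ± 0.11 (SE, n = 3 per group, exact permutation test, two-sided, p = 0.1). NCAPG over NCAPG2 was 2.25, 1.79 and 1.65 in ZsGreen-positive and 0.672, 0.753 and 0.720 in ZsGreen-negative libraries. So NCAPG was the more abundant partner in every ZsGreen-positive library and the less abundant one in every ZsGreen-negative library, a log2 difference of 1.40 ± 0.14 (exact permutation test, p = 0.1).

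The third pair went the other way. NCAPD2 over NCAPD3 was 3.96, 3.36 and 3.21 in ZsGreen-positive and 4.64, 4.52 and 4.57 in ZsGreen-negative libraries. Every ZsGreen-positive ratio was lower, by -0.39 ± 0.0921 on the log2 scale (exact permutation test, p = 0.1). With ZsGreen-positive replicate 1 alone this difference was -0.21, and with 1 FPKM added to both genes it was -0.06. SMC2 over SMC4 was 0.656, 0.468 and 0.550 in ZsGreen-positive and 0.350, 0.459 and 0.386 in ZsGreen-negative libraries, so that the groups lay side by side without overlap (log2 difference 0.48 ± 0.18, exact permutation test, p = 0.1). With ZsGreen-positive replicate 1 alone it was 0.73. A p of 0.1 is the smallest that 3 against 3 libraries can give, and it stays 0.1 after adjustment over the 4 pairs, so none of these differences could pass 0.05.

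**Figure D2:**
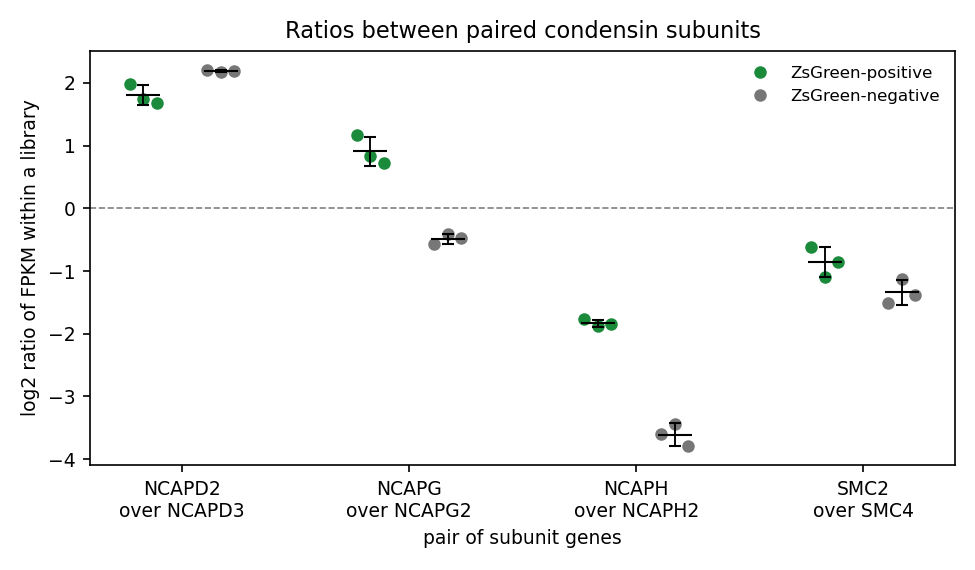
Log2 ratio of FPKM between paired condensin subunit genes within each library, with ZsGreen-positive libraries in green left of ZsGreen-negative libraries in grey. Points are single libraries, and black marks are the mean and SD of 3 libraries. NCAPG over NCAPG2 lies above 0 in ZsGreen-positive and below 0 in ZsGreen-negative libraries, NCAPH over NCAPH2 differs most (1.78), and NCAPD2 over NCAPD3 is the pair with the lower ratio in ZsGreen-positive libraries.

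Regulators of condensin and its partners on the chromosome were described from a list of 21 genes, all of which were tested. Of these, 16 rose, 3 fell and 2 did not pass, with a median log2 fold change of 2.2, beside 29.4% of all genes tested that rose and 30.0% that fell. Mitotic kinases and cyclins that phosphorylate or activate condensin showed the largest changes. AURKB, the kinase aurora B, had 42.7, 32.7 and 35.5 FPKM in ZsGreen-positive and 2.09, 2.86 and 2.40 FPKM in ZsGreen-negative libraries (log2 fold change 3.46 ± 0.13). CDK1, the kinase that phosphorylates condensin subunits at mitotic entry, averaged 93.4 ± 5.72 FPKM in ZsGreen-positive and 8.41 ± 0.349 FPKM in ZsGreen-negative cells (SD, n = 3 each, log2 fold change 3.33 ± 0.0729). TTK, a spindle checkpoint kinase that also phosphorylates NCAPH2, averaged 37.7 ± 2.09 FPKM in ZsGreen-positive and 3.35 ± 0.452 FPKM in ZsGreen-negative cells (3.16 ± 0.10). Every ZsGreen-positive library exceeded every ZsGreen-negative one for these kinases.

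The cyclin genes CCNA2 and CCNB1 and the kinase gene AURKA had log2 fold changes of 2.92 ± 0.0920, 2.89 ± 0.0722 and 2.73 ± 0.12. INCENP, the scaffold that activates aurora B, had one of 2.54 ± 0.11. The remaining mitotic members CCNB2 and PLK1 also rose, by 2.2 and 2.49. Casein kinase 2, which phosphorylates condensin in interphase, differed from them. Its regulatory subunit CSNK2B rose by 0.59, CSNK2A2 did not pass (11.7 ± 2.96 FPKM in ZsGreen-positive and 10.4 ± 1.09 FPKM in ZsGreen-negative cells), and CSNK2A1 fell by 0.25 on the log2 scale with the deposited values (limma adjusted p = 0.0116) but did not pass when libraries were rescaled to a sum of 1000000 (limma adjusted p = 0.448). It also missed the threshold without ZsGreen-negative replicate 2 (limma adjusted p = 0.0506).

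The list also held factors that bear on condensin loading and on its dephosphorylation. MCPH1, microcephalin, the inhibitor of condensin II, had 12.1, 12.0 and 13.2 FPKM in ZsGreen-positive and 16.4, 16.2 and 15.5 FPKM in ZsGreen-negative libraries. MCPH1 fell by 0.35 on the log2 scale (limma adjusted p = 0.00622) with the deposited values, and after rescaling to a sum of 1000000 it was lower by -0.17 without passing (limma adjusted p = 0.171). AKAP8, an anchoring protein that recruits condensin to chromatin, fell by 0.32 with the deposited values (limma adjusted p = 0.0109) and did not pass after that rescaling either (limma adjusted p = 0.257), nor without ZsGreen-negative replicate 1 (limma adjusted p = 0.0556) or 3 (limma adjusted p = 0.0608). The phosphatase scaffold PPP2R1A rose by 0.44, and the catalytic subunit PPP2CA stood at 65.8 ± 7.56 FPKM in ZsGreen-positive and 60.5 ± 1.42 FPKM in ZsGreen-negative cells and did not pass.

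Of the listed partners on the chromosome, 4 of 4 rose, beside 29.4% of all genes tested, and 1 of the 4 (TOP2B) did so near the threshold. TOP2A, the topoisomerase that shares the axis with condensin, averaged 39.3 ± 3.99 FPKM in ZsGreen-positive and 6.0 ± 0.15 FPKM in ZsGreen-negative cells (log2 fold change 2.52 ± 0.0929). KIF4A, a chromokinesin that works with condensin I, had a log2 fold change of 2.58 ± 0.15. MKI67, which encodes the coat protein of mitotic chromosomes Ki-67 and serves as a marker of proliferation, had 8.56, 9.50 and 7.78 FPKM in ZsGreen-positive and 2.17, 2.31 and 2.54 FPKM in ZsGreen-negative libraries (1.52 ± 0.12). TOP2B, the isoform used outside mitosis, changed little (0.20 ± 0.0690, limma adjusted p = 0.0406) and lost its call when any 1 library other than ZsGreen-positive replicate 1 was left out (limma adjusted p = 0.0729 to 0.127). The part of the share of dividing cells in the rise of the condensin subunits was not tested.

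**Figure D3:**
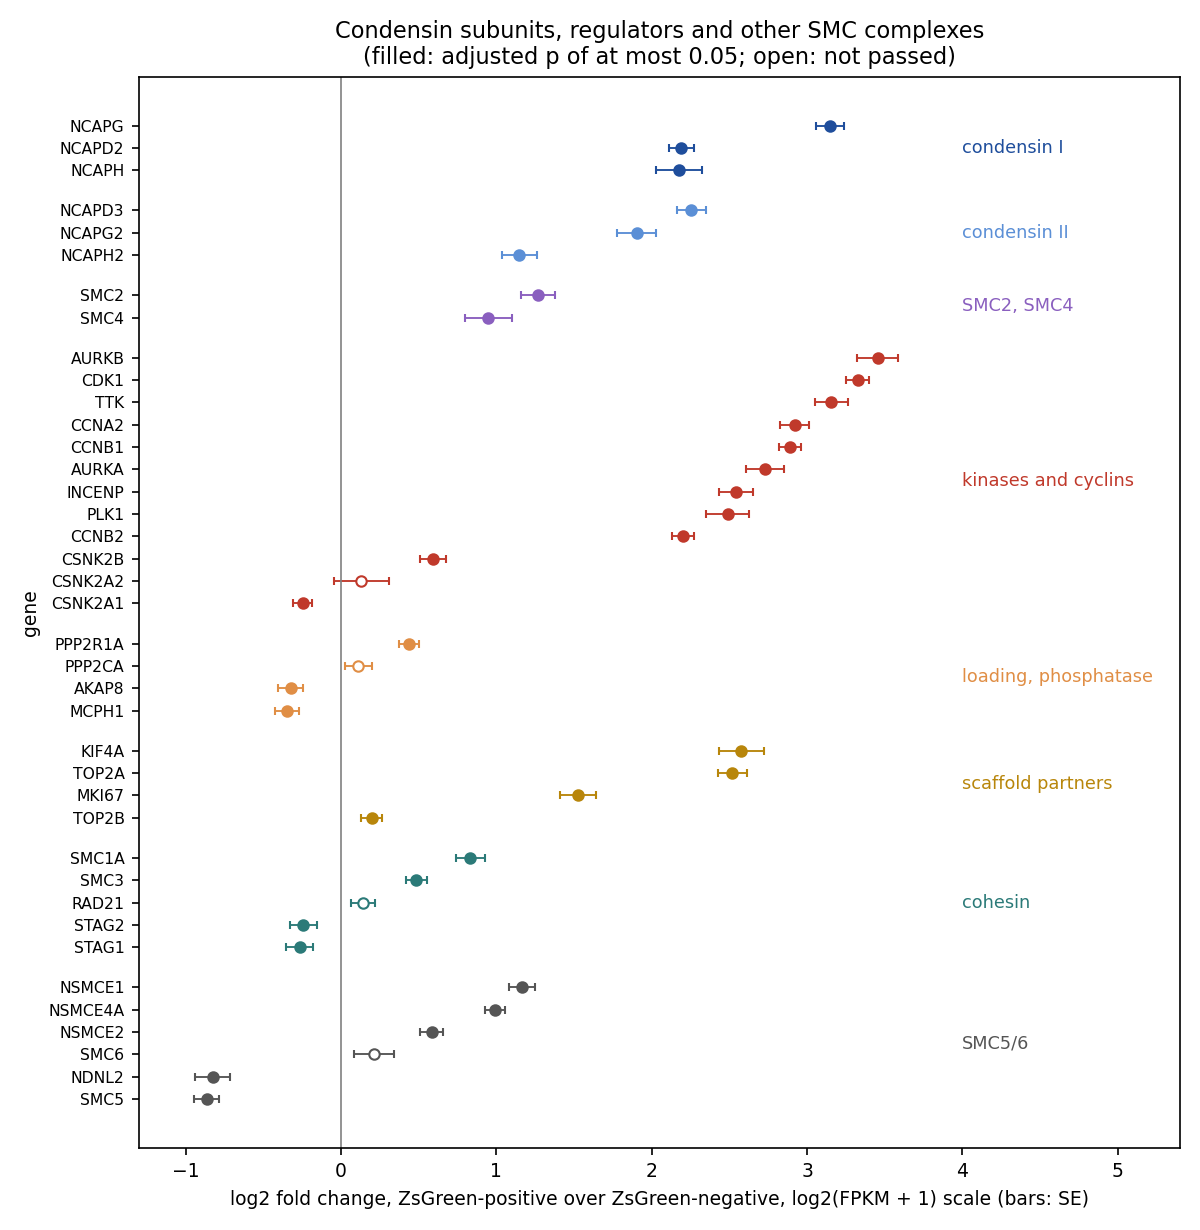
Log2 fold change with SE, ZsGreen-positive over ZsGreen-negative, for condensin subunits, 20 of their 21 regulators and partners, cohesin and SMC5/6. Filled points passed an adjusted p of 0.05 and open points did not. The 8 condensin points lie between 0.95 and 3.15, the cohesin points between -0.27 and 0.83 and the SMC5/6 points between -0.87 and 1.16.

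Other complexes built on SMC ATPases had counts nearer to those of all genes tested, of which 29.4% rose and 30.0% fell. Cohesin, which holds sister chromatids together, had 2 of 5 subunits that rose, 2 that fell and 1 that did not pass, with a median log2 fold change of 0.14. SMC1A had 10.1, 11.3 and 11.8 FPKM in ZsGreen-positive and 5.96, 5.87 and 5.45 FPKM in ZsGreen-negative libraries (log2 fold change 0.83 ± 0.0962), and SMC3 had a log2 fold change of 0.48 ± 0.0660. STAG1 had one of -0.27 ± 0.0847 (limma adjusted p = 0.0285), which was -0.09 and did not pass after rescaling to a sum of 1000000 (limma adjusted p = 0.551), as did STAG2 (-0.24, then -0.07, limma adjusted p = 0.678). Without any 1 of the ZsGreen-negative libraries neither STAG gene passed (limma adjusted p = 0.0798 to 0.134). Of the 6 subunits of SMC5/6, which acts in DNA repair, 3 rose, 2 fell and 1 did not pass, with a median of 0.40. NSMCE1 rose by 1.16 ± 0.0832 and NSMCE4A by 0.99 ± 0.0642, and the ATPase SMC5 fell by 0.87 ± 0.0800. The difference between the complexes was not tested as such, and the counts stand side by side.

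The genes nearest to the condensin subunits in their pattern over the 6 libraries were sought among all genes tested, by Euclidean distance between log2(FPKM + 1) profiles centred on their means. Nearest to the mean of the condensin I subunits were CDC25C (distance 0.0616), FANCD2 (0.122), PFKL (0.129), RNASEH2A (0.156) and INCENP (0.169), while the subunits NCAPD2, NCAPH and NCAPG themselves lay at 0.416, 0.473 and 0.811. CDC25C had 12.4, 11.5 and 12.1 FPKM in ZsGreen-positive and 1.31, 1.46 and 1.19 FPKM in ZsGreen-negative libraries. HAUS1 (0.146), SNRPA (0.159), CASC5 (0.160), DDIAS (0.161) and TSPAN17 (0.180) were nearest to the condensin II mean. SLC9A3R2 (0.149), COPS5 (0.157), NECAB3 (0.160), MAN2C1 (0.163) and NDRG4 (0.175) were nearest to the mean of SMC2 and SMC4. Because the groups stand far apart, the size of the fold change weighs heavily in such a distance.

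Genes that start within 1000 bases of a subunit gene on the opposite strand gave a local comparison. Whether such pairs share a promoter was not tested. GENCODE 29 lists one for 5 of the 8 genes. Of these neighbours, VPS26B, IFT80 and MRPL51 also overlap their subunit gene, so reads of these pairs may be mixed. Next to NCAPG, DCAF16, a substrate receptor of a ubiquitin ligase, had 18.5, 18.4 and 16.7 FPKM in ZsGreen-positive and 14.8, 15.3 and 15.9 FPKM in ZsGreen-negative libraries. Its groups were close but apart, with a log2 fold change of 0.21 ± 0.0766 (limma adjusted p = 0.0476), beside 3.15 for NCAPG. The call of DCAF16 was lost when any 1 library other than ZsGreen-positive replicate 3 was left out (limma adjusted p = 0.0741 to 0.167). VPS26B, a retromer subunit next to NCAPD3, overlapped between groups (7.71 ± 1.43 FPKM in ZsGreen-positive and 9.26 ± 0.721 FPKM in ZsGreen-negative cells, not passed). IFT80, a ciliary transport protein next to SMC4, did not pass either, with a log2 fold change of 0.20 ± 0.10. It passed after rescaling without small RNA genes (limma adjusted p = 0.0428) and without ZsGreen-positive replicate 3 (limma adjusted p = 0.0402).

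MRPL51, a mitochondrial ribosomal protein next to NCAPD2, rose by 0.63 ± 0.0674 (limma adjusted p = 0.000183), less than NCAPD2 itself, which it overlaps on the opposite strand. The pair of NCAPH2 was different from the others. LMF2, which encodes lipase maturation factor 2, had 12.4, 10.4 and 9.40 FPKM in ZsGreen-positive and 4.67, 4.67 and 4.26 FPKM in ZsGreen-negative libraries. That is a 2.37-fold rise in mean FPKM (log2 fold change 1.08 ± 0.12, limma adjusted p = 0.000207), close to the 2.33-fold rise of NCAPH2. Pairs were not tested against each other.

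**Figure D4:**
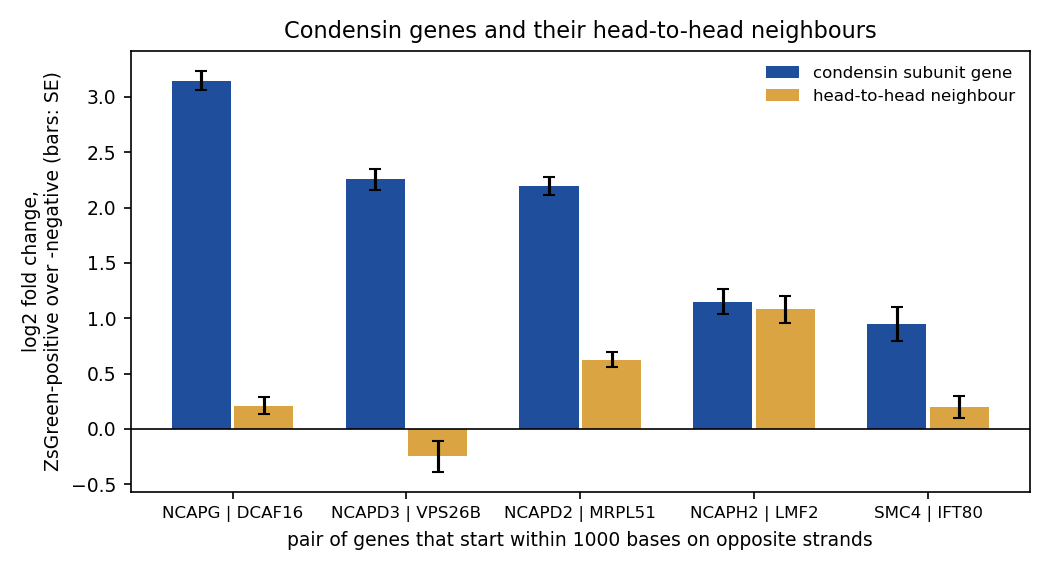
Log2 fold change with SE, ZsGreen-positive over ZsGreen-negative, of condensin subunit genes (blue) and of the genes that start within 1000 bases on the opposite strand (yellow). The neighbours of NCAPG, NCAPD3 and SMC4 lie between -0.25 and 0.21, MRPL51 next to NCAPD2 lies at 0.63, and LMF2 next to NCAPH2 lies at 1.08 beside 1.15.

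Genes inside the subunit genes were read as well. SCARNA10, a small Cajal body RNA encoded within NCAPD2 on the same strand, was listed at 2658, 2300.0 and 2033 FPKM in ZsGreen-positive and at 5451, 5646 and 6022 FPKM in ZsGreen-negative libraries. It fell (log2 fold change -1.3 ± 0.11, limma adjusted p = 5.03e-05) while its host NCAPD2 rose. FPKM of so short an RNA without a poly(A) tail can be far off. MIR15B and MIR16-2, the microRNA genes within SMC4, were listed at 0 in every library. In the annotation TRIM59 and IFT80 overlap SMC4, LCORL overlaps NCAPG, MRPL51 overlaps NCAPD2, and VPS26B and JAM3 overlap NCAPD3, each on the opposite strand, and how strand was treated in quantification is not stated, so their reads cannot be told apart here. GENCODE also names 4 pseudogenes after subunits (NCAPD2P1, NCAPGP1, NCAPGP2 and SMC4P1), with no row in the tables, so reads shared with them cannot be separated.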

How the data were processed

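The authors deposited 1 FPKM table per library. The submitters' processing notes name hg19, Cuffdiff 2.2.1, TopHat2 2.1.1, SAMtools 0.1.18 and Bowtie2 2.2.8, and the labels' protocols name a stranded mRNA kit. For annotation, scaling between libraries and strand settings, the answer is not given in the sources used here. Where FPKM is relative to a library total, very abundant RNAs can move every other gene.

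All genes whose FPKM averaged 1 or more entered a two-sided limma fit (limma 3.58.1, R 4.3.3, eBayes, trend on the mean) of log2(FPKM + 1). Benjamini-Hochberg adjustment ran over all of them, with a threshold of 0.05. The script was tested on simulated data in which only a small part of the genes changed. In these data 59.4% of the genes tested passed, so that test does not cover their setting. Ratios used exact permutation tests (Python 3.11.15, SciPy 1.17.1). Depth came from the commonest lowest step of FPKM times length, over 2137 GENCODE 29 genes that have a single transcript, 1000 nt or longer. Estimated fragments are not counts, so no count model was run.

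Members and gene lists were chosen with earlier results of these data known. Named genes were the 8 members, the 8 largest changes and all that did not pass among regulators, up to 3 for cohesin and for SMC5/6, the 5 nearest patterns per group of subunits and head-to-head neighbours. Members of short lists beyond these, and genes inside or overlapping the subunit genes, were named after their values were seen. NSMCE3 was matched through its synonym NDNL2. The values of 1 gene on the regulator list, which the list's counts include, are not reported here. No paired design is given: replicate numbers are shared, but numbers alone do not pair libraries. Alternatives were other pseudocounts, filters, scalings, no trend, a replicate block and leaving out libraries.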

Additional observations from a re-analysis of the deposited data

How the results depend on the processing

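All 8 condensin subunits rose under every alternative with at least 2 libraries per group in which they were tested, except that NCAPH was not tested at a minimum mean FPKM of 5, where 7 of 7 rose. The ranges of their log2 fold changes that follow also include the fit with 1 ZsGreen-positive library. They lay between 2.26 and 3.51 for NCAPG, 1.87 and 2.34 for NCAPD2, and 1.13 and 2.87 for NCAPH. For condensin II they were 1.43 and 2.63 for NCAPD3, 1.32 and 2.13 for NCAPG2, and 0.96 and 1.30 for NCAPH2. The ATPase genes had 0.78 and 1.48 for SMC2, and 0.64 and 1.10 for SMC4. The 0.64 of SMC4 came from the fit with 1 ZsGreen-positive library. With a pseudocount of 5 the condensin median was 1.23, because a larger pseudocount shrinks the fold changes of low genes. The largest limma adjusted p of any of them was 0.00682. The median log2 fold change of all genes tested was 0.0040 with the deposited values, 0.15 after rescaling to a sum of 1000000 and 0.14 after rescaling without small RNA genes, and the condensin median was 2.04, 1.93 and 2.17. Of all calls, 49.5%, 62.4% and 60.9% were then higher in ZsGreen-positive cells. Under both rescalings 0 regulators and partners fell, against 3 with the deposited values, and 2 cohesin and SMC5/6 subunits fell, against 4. Leaving out 1 library gave 2 to 4 such subunits. Both rescalings raise all ZsGreen-positive values relative to the others. Small RNA genes held 66.0% to 68.1% of the FPKM sum of each library, so the rescaling to a sum of 1000000 rests mostly on them. Same-numbered libraries did not deviate together (correlations of deviations over genes -0.0301 to -0.0209). For libraries of different number the correlations were -0.00557 to 0.0287. With 3 libraries per group, such values cannot settle whether same-numbered libraries share a culture or a sort. With the replicate block 6915 genes passed, against 7258 without it, and 8 condensin subunits rose. For the log2 ratio differences, whose size a balanced block cannot change, the exact sign-flip test gave p = 0.25 for each pair, the smallest possible. Among single genes outside condensin, 38 values over all alternatives, the fit with 1 ZsGreen-positive library included, lost their call and 13 gained one, and no called value changed sign. Depth limits NCAPH most, since its ZsGreen-negative values rest on about 25.9 to 33.5 fragments.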
